A study of Mus musculus with 4 samples.

Results

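The genes described here encode the myosin heavy chains of striated muscle, 9 in number, and they were followed on arrays of mouse eye tissue. They were chosen by name (Myh1, Myh2, Myh3, Myh4, Myh6, Myh7, Myh7b, Myh8 and Myh13), through every probe set that the platform annotation assigned to 1 of these symbols alone. Of 45101 probe sets, 12 met this rule and covered 8 of the genes, among 18193 genes with a probe set of their own. No probe set carried the symbol Myh13 alone, so the extraocular isoform itself was not analysed here. A further 2 probe sets carried the symbols of both Myh6 and Myh7 and are described apart.

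The study asked what myocilin, a secreted glycoprotein, does to the retina when transgenic animals carry it in the aqueous humor, the fluid that fills the front of the eye. Total RNA labelled retina was hybridised to 4 one-colour Affymetrix arrays, 2 from control animals and 2 from myocilin transgenic animals. Both control arrays are technical replicates of 1 RNA by the labels and count here as 1 sample, and whether the transgenic arrays came from separate animals is not said. The spread behind the p-values may thus be technical. The sources used here do not give the strain, age or sex of the animals, the promoter of the transgene or the genotype of the controls.

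Each myosin molecule of a muscle thick filament is built on a pair of heavy chains, whose heads hydrolyse ATP and pull on actin and whose tails pack into the filament. The isoform sets how fast a fibre shortens. Adult fast fibres use the IIa, IIx and IIb chains (Myh2, Myh1 and Myh4), slow fibres and the heart use the beta chain (Myh7), the adult mouse heart uses the alpha chain (Myh6), and embryonic and perinatal muscle use Myh3 and Myh8. Most limb and trunk muscles switch the developmental chains off after birth. The extraocular muscles, which turn the eye, keep them in adult life together with alpha, slow tonic (Myh7b) and extraocular (Myh13) chains.

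The genes Myh3, Myh2, Myh1, Myh4, Myh8 and Myh13 follow each other on chromosome 11 in this order, Myh6 and Myh7 lie on chromosome 14 and Myh7b lies on chromosome 2. The promoter windows of the first 5 genes of this cluster are shown as a description. A link between their letters and the values on the arrays was not tested. Each window runs 5′ to 3′ from 250 bases before to 50 bases after the gene's start in RefSeq (build GRCm38.p6, the build of that annotation, since none was named for the arrays). All 9 genes matched a window by symbol. Capitals mark the 2 longest runs of letters shared by Myh2, Myh1, Myh4 and Myh8 that do not overlap, and the TATA box letters TATAAAA.
Myh3 (chr11:67078050-67078349, plus strand): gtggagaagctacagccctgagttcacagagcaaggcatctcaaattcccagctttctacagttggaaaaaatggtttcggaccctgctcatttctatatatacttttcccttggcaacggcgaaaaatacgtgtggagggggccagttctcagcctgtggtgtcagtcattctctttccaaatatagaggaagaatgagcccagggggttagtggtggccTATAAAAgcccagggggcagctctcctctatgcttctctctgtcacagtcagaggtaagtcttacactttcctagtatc
Myh2 (chr11:67170777-67171076, plus strand): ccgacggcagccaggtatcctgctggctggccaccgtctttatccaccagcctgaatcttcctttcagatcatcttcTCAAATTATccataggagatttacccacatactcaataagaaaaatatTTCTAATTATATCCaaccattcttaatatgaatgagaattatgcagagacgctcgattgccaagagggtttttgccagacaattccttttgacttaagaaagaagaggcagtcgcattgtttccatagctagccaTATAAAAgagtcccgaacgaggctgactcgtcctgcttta
Myh1 (chr11:67199852-67200151, plus strand): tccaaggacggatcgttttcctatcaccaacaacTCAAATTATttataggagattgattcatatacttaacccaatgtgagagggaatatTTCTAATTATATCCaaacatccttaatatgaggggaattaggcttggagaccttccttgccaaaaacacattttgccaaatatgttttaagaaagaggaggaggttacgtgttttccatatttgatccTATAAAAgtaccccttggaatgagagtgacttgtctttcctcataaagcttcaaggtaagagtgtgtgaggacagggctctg
Myh4 (chr11:67237562-67237861, plus strand): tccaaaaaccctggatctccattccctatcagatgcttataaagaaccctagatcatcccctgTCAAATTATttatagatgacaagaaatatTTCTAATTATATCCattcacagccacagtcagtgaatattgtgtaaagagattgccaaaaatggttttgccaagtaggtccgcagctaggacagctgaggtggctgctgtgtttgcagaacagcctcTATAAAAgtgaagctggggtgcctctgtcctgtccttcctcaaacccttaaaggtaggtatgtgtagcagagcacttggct
Myh8 (chr11:67276874-67277173, plus strand): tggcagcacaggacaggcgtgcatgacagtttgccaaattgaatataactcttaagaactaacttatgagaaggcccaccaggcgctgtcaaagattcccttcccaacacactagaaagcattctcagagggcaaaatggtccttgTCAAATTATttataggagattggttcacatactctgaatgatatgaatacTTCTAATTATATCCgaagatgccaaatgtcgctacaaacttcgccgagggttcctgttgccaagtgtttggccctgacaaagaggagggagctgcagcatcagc

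The longest run common to the windows of Myh2, Myh1, Myh4 and Myh8 was TTCTAATTATATCC. Searched on both strands, it was present in these 4 windows and in no other of the 32851 windows of the same length, a share of 0.0122%. Because the run was found by comparing these genes with each other, its rarity is a description and not a test. It began 125 bases before the start of Myh2, 160 before that of Myh1, 158 before that of Myh4 and 54 before that of Myh8. The second shared run, TCAAATTAT, lay upstream of the first in all 4 windows and was found in 0.18% of all windows. Neither run was in the windows of Myh3 or Myh13. TATAAAA, in 5.48% of windows on either strand, lay 29 to 32 bases before the starts of Myh3, Myh1 and Myh4 and 10 bases after the annotated start of Myh2. The letters CANNTG, bound by myogenic factors such as MyoD and held by 72.3% of windows, were in those of Myh3, Myh4, Myh8 and Myh13 and not in those of Myh1 and Myh2. Such matches describe letters and not binding sites.

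**Figure D1:**
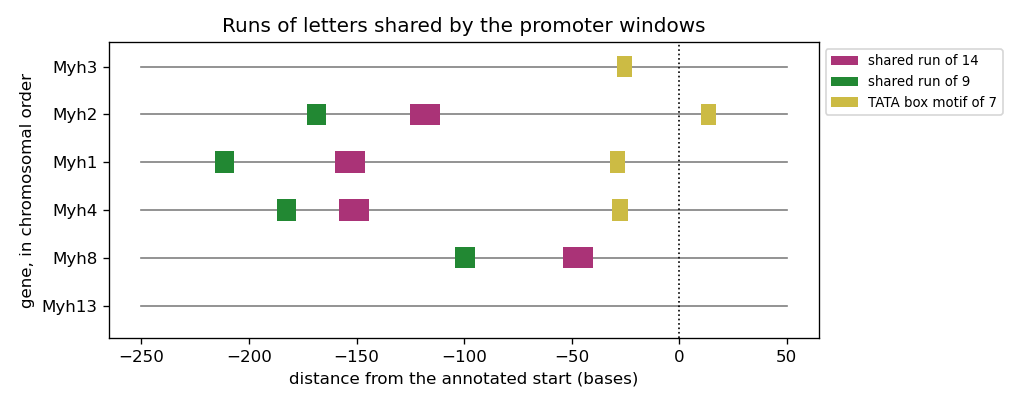
Promoter windows of the 6 chromosome 11 genes in chromosomal order, with the distance from the annotated start in bases on the horizontal axis. Bars to scale mark the shared runs of 14 and 9 letters and the TATA box motif of 7 letters. The 2 shared runs appear in the same order in Myh2, Myh1, Myh4 and Myh8, and neither appears in Myh3 or Myh13.

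The deposited signals are linear intensities, set to a mean of 150 on every array after trimming 2% of probe sets at each end, with median signals between 47.1 and 50.3. They were compared as log2(signal + 16), so changes of dim probe sets are understated, and only probe sets above the 40th percentile of mean level, a signal of about 30, were tested. Retinal markers were low on these arrays: of 5 rod genes with a probe set 0 exceeded 150, and their summed signals ran from 134 to 212. All 4 corneal epithelium markers exceeded 150, with summed signals from 34296 to 39011, and so did 10 of 12 skeletal muscle markers. Levels are not ranked between probe sets, whose probes bind with different strength.

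Myosin heavy chain signals were moderately higher in the transgenic samples for Myh2, Myh3 and Myh8, little higher for Myh1 and not higher for Myh4, and none of these differences passed the test across all probe sets. Of the 12 probe sets, 8 passed the filter on level, and 0 of these 8 had an adjusted p under 0.05 in limma, where 0.0777% of all 27022 tested probe sets did (21 probe sets, 15 higher and 6 lower). Without the filter or without the intensity trend 0 probe sets passed in limma, so these calls, and those of single genes given further on, are lost there. Under quantile normalization the split was 20 higher and 19 lower, and under median centring 47 and 9. At an unadjusted limma p under 0.05 there were 3 of 8, all higher, against 7.06% of all tested probe sets in either direction and 4.14% higher. Both transgenic arrays lay above both control arrays for 5 of the 8, against 21.1% of all tested probe sets. They lay below both for 1, against 23.6%, and overlapped for 2. The median log2 change of the 8 was 0.21, and that of all tested probe sets was −0.02. The 4 probe sets under the filter are given by their signals, and 3 of them were lower on both transgenic arrays, as were 16.9% of all probe sets under the filter.

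**Figure D2:**
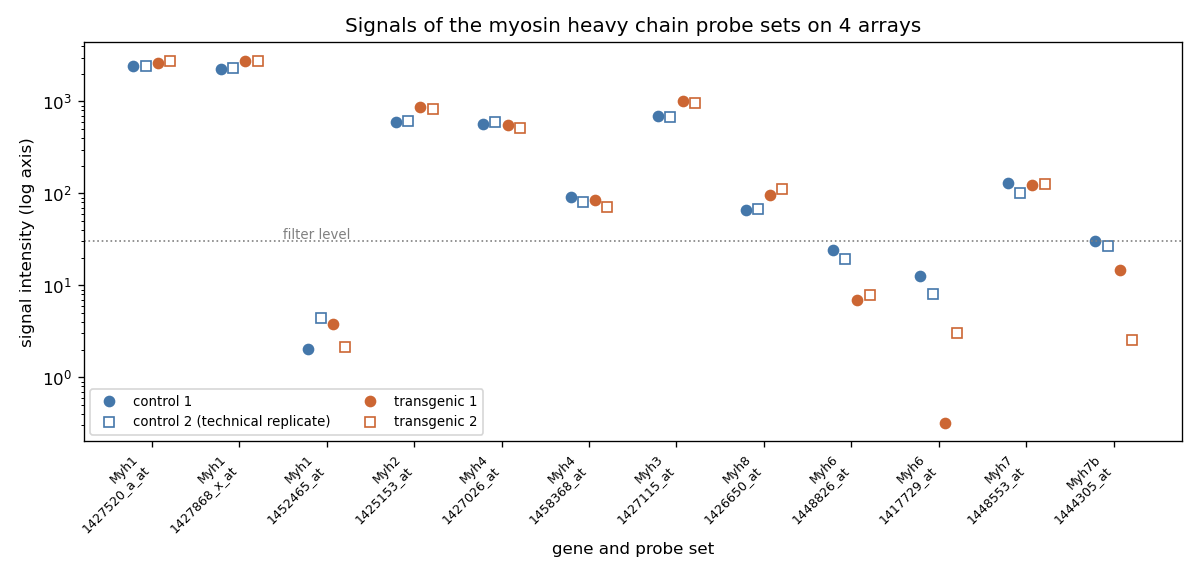
Signal intensity on a log axis for each of the 12 probe sets, with control arrays in blue and transgenic arrays in orange, and squares for the second array of each group. The dotted line marks the filter level of about 30. The points of Myh2, Myh3 and Myh8 are higher in orange than in blue, while 4 probe sets lie at or under the line.

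Among the adult fast chains, Myh2, which encodes the IIa chain of fast oxidative fibres, had control signals of 596 and 618 and transgenic signals of 872 and 836. Both transgenic arrays were thus above both controls, and the arrays within each group lay close together. The mean was 607 in control and 854 ± 25.3 (SD, n = 2) in the transgenic samples, a ratio of 1.41. On the log2 scale the difference was 0.48 ± 0.12 (SE), with a 95% interval from 0.22 to 0.74, a limma p of 0.00175 and an adjusted p of 0.308 over all tested probe sets. The technical control pair differed by 0.05 on this scale and the transgenic pair by 0.06 in size.

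Myh1, which encodes the IIx chain, was represented by 3 probe sets, of which 2 were bright. On 1427520_a_at the control signals were 2449 and 2454, and the transgenic signals 2619 and 2784. The transgenic mean of 2701 ± 116 (SD, n = 2) was 1.1 times the control mean, a log2 difference of 0.14 ± 0.10 (SE; limma adjusted p = 0.861). The control arrays were almost equal here, and the gap to the lower transgenic array was similar in size to the gap between the transgenic arrays.

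The second bright Myh1 probe set, 1427868_x_at, read 2239 and 2303 in control and 2766 and 2737 in transgenic samples. Its log2 difference was 0.28 ± 0.10 (SE), with a 95% interval from 0.06 to 0.49, a limma p of 0.0165 and an adjusted p of 0.569. The suffix x marks probe sets that Affymetrix designed with probes that can also match other transcripts. The annotation ties it to the same sequence record as 1427867_at, the probe set of Myhas, a long noncoding RNA gene that lies between Myh1 and Myh4. Myhas gave 326 and 349 in control and 325 and 419 in transgenic samples, so its groups overlapped, with a log2 difference of 0.12 ± 0.17 (SE; limma adjusted p = 0.952). The third Myh1 probe set, 1452465_at, stayed between 2.02 and 4.46 on all 4 arrays and lay under the filter, so it has no tested change to set beside those of the other two.

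Myh4, the gene of the IIb chain of the fastest fibres, went the other way from Myh2 in direction. Its brighter probe set, 1427026_at, gave 565 and 593 in control against 548 and 519 in transgenic samples. Both transgenic arrays lay below both controls by a small margin. The log2 difference was −0.12 ± 0.13 (SE), with a 95% interval from −0.40 to 0.16 and a limma adjusted p of 0.932. On 1458368_at, the dimmer probe set, signals of 91.8 and 81.5 in control and 85.2 and 70.3 in transgenic samples overlapped, with a difference of −0.13 ± 0.26 (SE; limma adjusted p = 0.968).

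The developmental chains showed 2 of the 3 highest differences of the family on the log2 scale. Myh3, which encodes the embryonic chain, had signals of 694 and 676 in control and of 1023 and 955 in transgenic samples. The groups did not overlap, and the gap between them was wider than either gap within a group. The mean went from 685 to 989 ± 47.8 (SD, n = 2), a ratio of 1.44 and a log2 difference of 0.52 ± 0.12 (SE), with a 95% interval from 0.26 to 0.78. Its limma p was 0.00091 and its adjusted p 0.259. Counting the technical control pair as separate samples brought the adjusted p of Myh3 to 0.0395, a setting that treats 1 RNA as 2 samples.

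Myh8, which encodes the perinatal chain, gave 65.7 and 68.0 in control against 96.2 and 111 in transgenic samples. Again both transgenic arrays were higher than both controls. The ratio of the means was 1.55, and the log2 difference was 0.53 ± 0.24 (SE), with a 95% interval from 0.00 to 1.06, a limma p of 0.0517 and an adjusted p of 0.710.

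The slow and cardiac chains either differed by less than the spread between arrays or lay under the filter on level. Myh7, which encodes the beta chain of slow fibres, read 128 and 100.1 in control and 124 and 126 in transgenic samples. The transgenic arrays lay between the 2 technical replicates, whose own log2 difference was −0.31, wider than the group difference of 0.12 ± 0.21 (SE; limma adjusted p = 0.966). Without the second control array the value for Myh7 was −0.04, and without the first it was 0.28.

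Myh6, the alpha chain gene, was under the filter on both of its probe sets. On 1448826_at the signals were 24.1 and 19.5 in control and 6.87 and 7.80 in transgenic samples, and on 1417729_at they were 12.5 and 7.97 in control and 0.318 and 3.0 in transgenic samples. All of these lay below the filter level, and both transgenic arrays were the lower ones on each probe set. Myh7b, the gene of the slow tonic chain, was also under the filter in mean level, with 30.4 and 26.7 in control and 14.8 and 2.56 in transgenic samples. Their log2 differences moved with the pseudocount, for Myh7b from −0.35 to −1.98 across settings, so no size is given for them.

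Both probe sets that carry the symbols Myh6 and Myh7 together were dim too. The signals of 1448554_s_at were 24.5 and 18.1 in control and 33.4 and 15.8 in transgenic samples, which overlapped. Those of 1448827_s_at were 5.70 and 4.33 in control and 1.09 and 0.962 in transgenic samples, near the bottom of the scale. Of 7 heart muscle markers outside the myosins, 1 exceeded a signal of 150, the actin gene Actc1, which developing skeletal muscle also expresses. The other members of this list went in both directions. Nppb, a natriuretic peptide gene, gave 80.3 and 73.6 in control and 31.1 and 38.2 in transgenic samples. Mybpc3, the cardiac myosin binding protein C gene, gave 55.8 and 48.8 in control and 48.1 and 40.8 in transgenic samples. Tnnt2, the cardiac troponin T gene, gave 47.8 and 51.7 in control and 111 and 64.1 in transgenic samples, and Ryr2, the cardiac calcium release channel, gave 3.79 and 18.9 against 24.0 and 32.1. Nppa, the atrial natriuretic peptide gene, stayed between 10.4 and 16.1 and Tnni3, the cardiac troponin I gene, between 0.955 and 8.0.

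**Figure D3:**
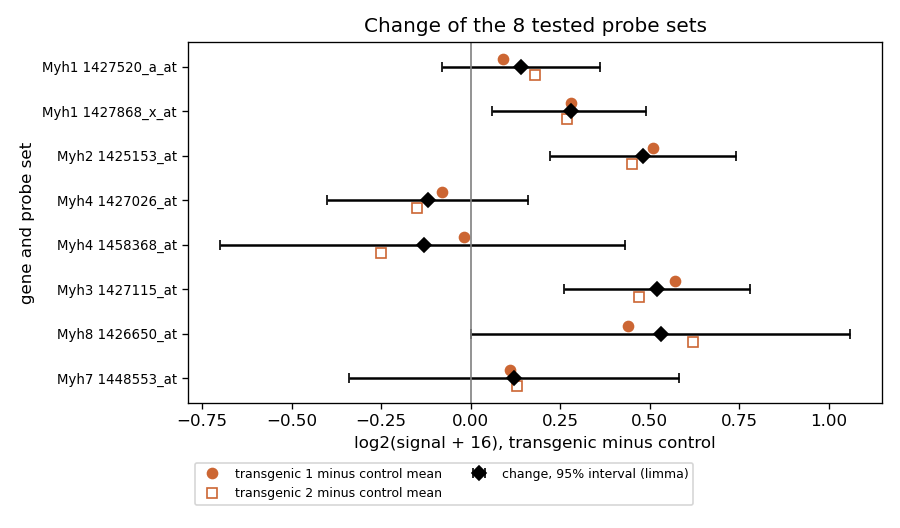
Log2 differences between transgenic and control samples, on the log2(signal + 16) scale, for the 8 tested probe sets. Diamonds give the difference with its 95% interval from limma, and orange symbols give each transgenic array against the control mean. The intervals of Myh2, Myh3 and 1 Myh1 probe set lie above 0, and those of Myh4 and Myh7 span it.

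Within the family the differences were unequal, with Myh4 apart from Myh2, Myh3 and Myh8. Whether probes of these related genes also bind each other's transcripts could not be checked. Both transgenic arrays are set against the same control mean, so their values are not independent. Taking the brightest tested probe set of each gene, the log2 difference of Myh2 exceeded that of Myh4 by 0.59 on the first transgenic array and by 0.61 on the second. The same quantity between the 2 control arrays was −0.02. Myh3 exceeded Myh4 by 0.65 and 0.63 in the same way, with a size of 0.10 between the control arrays, and Myh8 exceeded Myh4 by 0.52 and 0.77. Myh2 and Myh3 differed from each other by 0.06 and 0.02 in size. In all 15 pairs were formed from 6 genes, and an exact permutation test of 1 control against 2 transgenic samples cannot go below p = 0.333, so these contrasts remain descriptions. Along chromosome 11 the log2 differences ran 0.52 for Myh3, 0.48 for Myh2, 0.14 for Myh1, −0.12 for Myh4 and 0.53 for Myh8. Of the 4 genes that share the TTCTAATTATATCC run, Myh4 had the lowest of these values and Myh8 the highest. The value of Myh8, with an SE of 0.24, was almost equal to that of Myh3, which lacks the run. The place of Myh8 depended on the pseudocount. At a pseudocount of 64 Myh8 stood at 0.36, below Myh2 at 0.45 and Myh3 at 0.49. A link between the run and these values was not tested.

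The partners of the heavy chains in the sarcomere were compared in the same fit, each gene by its brightest probe set. Over 10 lists, 78 genes were tested and 2 passed, where 0.0777% of all tested probe sets did. Both were higher and both were light chains, which bind the neck of the heavy chain. Myl1, the alkali light chain of fast fibres, went from control signals of 3191 and 3051 to transgenic signals of 6296 and 6251 and rose by 1.00 on the log2 scale (limma adjusted p = 0.00341). Mylpf, the fast regulatory light chain, rose by 0.87 (limma adjusted p = 0.00732), from 1710 and 1829 to 3172 and 3332. The median over the 5 tested light chains of striated muscle was 0.67, and 5 of 5 lay above 0, against 46.9% of all tested probe sets. Thus the fast light chains passed the test and the heavy chains that they bind did not, and the difference between light and heavy chains was not tested.

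Other sarcomere lists had no gene past the threshold. The thick filament and M band partners had a median log2 difference of 0.05 over 9 tested genes, with Myom1, the myomesin of the M band, at 0.39, Mybpc1, the slow myosin binding protein C, at 0.36 and Ttn, the titin gene, at 0.04. Of 17 thin filament genes, 15 lay above 0, against 46.9% of all tested probe sets, with a median of 0.28. Tnni1 and Tnnc1, troponin genes of slow fibres, stood at 0.79 and 0.59. The cardiac troponin T gene Tnnt2 stood at 0.62 and Tnni2, a troponin gene of fast fibres, at 0.55. The Z disc list had a median of 0.21 over 14 genes, with Myoz2 at 0.79, Myot at 0.58 and Flnc at −0.58. For myosin folding and assembly, Naca stood at 0.34, the chaperone Unc45b at 0.21 and the methyltransferase Smyd1 at −0.19, in a list with a median of 0.20 over 5 genes.

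Most fibre type partners of either class had higher signals on the transgenic arrays, and 2 passed the test. All but Pvalb, Casq1, Atp2a1, Casq2 and Atp2a2 repeat genes of the sarcomere lists above, so these are not separate results. Of 11 fast fibre partners, 10 were above both controls on both transgenic arrays, where 21.1% of all tested probe sets were, with a median of 0.30 and Myl1 and Mylpf as the 2 that passed. Of 8 tested slow fibre and cardiac partners, 7 were, with a median of 0.50. None of the 8 passed in limma (0 of 8), while 6 had an unadjusted p under 0.05, against 7.06% of all tested probe sets. Atp2a2, the calcium pump of slow fibres, was lower on both transgenic arrays, at −0.13. The slow heavy chain Myh7 at 0.12 lay below that median, and its control arrays were the least alike of the tested members.

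Regulators and nerve contact genes were mixed in direction, and none passed. Among 13 tested myogenic and fibre type regulators, 6 lay above 0 and 7 below, with a median of −0.02. Tbx15, a factor of fast fibres, stood at 0.69, Myod1, the myogenic determination factor, at −0.61 and Myf6, a further myogenic factor, at 0.55 (limma adjusted p between 0.473 and 0.821). Myod1 was dim, reading 50.2 and 41.3 in control against 29.0 and 20.3 in transgenic samples. It entered the test by its mean level, although neither transgenic array reached about 30, so the size of its change rests on dim readings. The neuromuscular junction list had a median of 0.00 over 6 genes, from −0.32 for Dok7 to 0.21 for Rapsn. Of the heavy chains outside striated muscle, Myh11 of smooth muscle stood at −0.04 and Myh9 and Myh10 of non-muscle cells at −0.13 and 0.11. The other Myh9 probe sets, 1417472_at, 1420170_at, 1420171_s_at and 1440708_at, were lower on both transgenic arrays, at −0.45, −0.57, −0.11 and −0.36, and none passed (limma adjusted p between 0.422 and 0.919). Myh14, a further non-muscle chain, had signals of 652 and 595 in control and 378 and 409 in transgenic samples, a log2 difference of −0.64 with an adjusted p of 0.230.

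**Figure D4:**
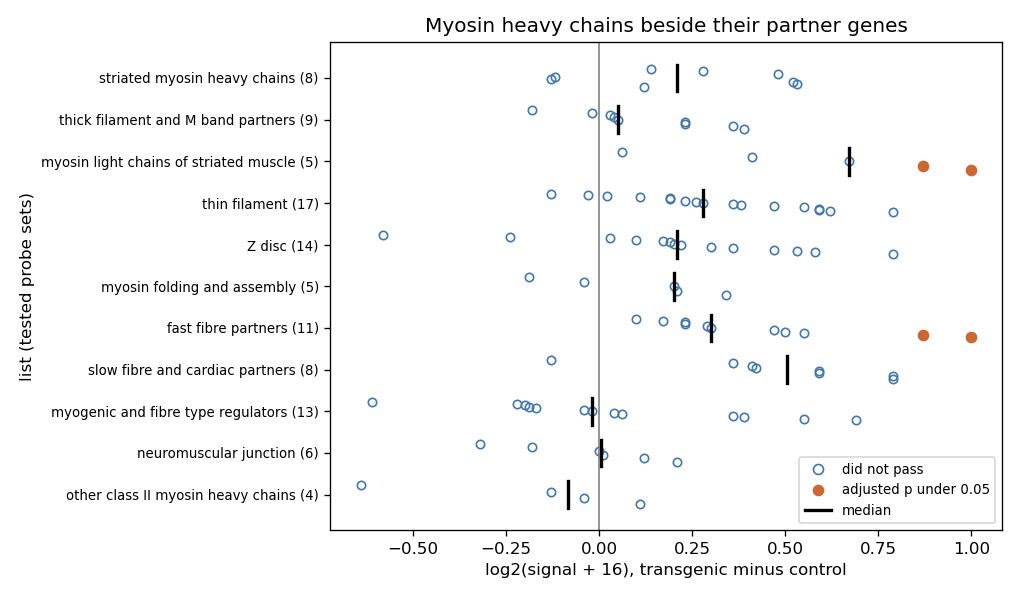
Log2 differences of all tested genes in the heavy chain family and in 10 lists of partners, on the log2(signal + 16) scale. Each circle is 1 probe set, filled where the limma adjusted p was under 0.05, and black bars are medians. Only Myl1 and Mylpf are filled, and both appear in the light chain list and again in the fast fibre list.

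Most skeletal muscle markers outside the myosins were higher in the transgenic samples. Only Mb, Ckm, Eno3 and Pygm among them were not already in the lists above, so this is not a separate set of genes. All 12 of 12 markers were tested and lay above 0, against 46.9% of all tested probe sets, with a median log2 difference of 0.42. Both transgenic arrays lay above both controls for 9 of the 12, against 21.1% of all tested probe sets. The groups overlapped for Pygm, Des and Actn3. The summed signals of the 12 were 7806 and 8157 in control against 11876 and 11456 in transgenic samples. In this list 1 gene passed, Mb, the myoglobin gene, at 1.06 (limma adjusted p = 0.00581). Of all tested probe sets 0.0777% passed, which is the share to set beside this and the next counts. Most tested markers of lens, pigment cells and stroma were higher as well, while those of rods and cones were not. Of 4 tested lens genes, 3 passed, with a median of 1.90. Of 5 pigment epithelium and melanocyte genes 2 passed, Rpe65 at 1.24 and Rgr at 1.06, with a median of 0.44. The others, Tyr, Dct and Pmel, stood at 0.44, 0.21 and 0.18. Of 6 stromal fibroblast genes 1 passed, Kera of the corneal stroma at 1.54, with a median of 0.31. The 4 corneal epithelium genes were little higher, with a median of 0.08, and 0 passed. Retinal markers, which were low on these arrays, were not higher. Of 3 tested cone genes 0 lay above 0 and 0 passed, with a median of −0.24. The 1 tested rod gene stood at −0.27 and did not pass. Satellite cell markers, which mark muscle stem cells, were dim, with Pax7 between 9.44 and 21.4. Whole tissue was measured, so more muscle in a sample and more RNA per fibre cannot be told apart. The part of the muscle content, or of the other tissues in the sample, in the differences of Myh2, Myh3 and Myh8 was not tested.

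The genes whose 4 values lay nearest to those of Myh1, Myh3 and Myh2 were sought among 22915 other tested probe sets, by the root mean square difference of the log2 values after setting each control mean to 0. Nearest to Myh1 was Prdx4, at a distance of 0.005, then Esf1 and Zfp148. Nearest to Myh3 were Fmr1 at 0.014, Cox8b at 0.015 and Eef1akmt2 at 0.017, and nearest to Myh2 were Hltf at 0.016, Phospho2 at 0.019 and Timp2 at 0.023. Of these, Cox8b encodes a muscle form of a cytochrome oxidase subunit, with signals of 1956 and 1874 in control and 2828 and 2620 in transgenic samples. With 4 arrays and this many candidates, such nearness is a description of these arrays.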

How the data were processed

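The authors deposited linear signal intensities per probe set and array, and the software behind them was not given in the sources used here. Gene names came from the platform annotation, in which 34958 had 1 symbol, 932 several and 9211 none, and 64 array controls were left out. Intensities were transformed as log2(signal + 16), the 2 control arrays were averaged, and the 27022 probe sets above the 40th percentile of mean level were fitted in R 4.3.3 by limma 3.58.1 with moderation along the intensity trend (1 residual and 10.3 prior degrees of freedom), two-sided tests and Benjamini-Hochberg adjustment over all of them at 0.05. The single control sample has no spread of its own in this fit and borrows that of the transgenic ones. The fit was checked on simulated data.

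Members, gene lists and the rule for named genes (all member probe sets, in other lists those past the threshold or up to 3 with the largest change, and nearest patterns) were chosen with earlier results of these data known. Further genes were named after their values were seen: Ttn, Unc45b, Smyd1, Tnnc1, Myhas, Atp2a2, Pax7, Mb, Kera, Actc1, Nppa, Nppb, Ryr2 and Tnni3. So were Tnni2, Mybpc3, Pygm, Des, Actn3, Rpe65, Rgr, Tyr, Dct, Pmel and Mip. Shared promoter runs were sought after the signals were seen. Alternatives were the scaling, the pseudocount, the filter, the treatment of the control arrays, the trend, the probe set rule and leaving out each array.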

Additional observations from a re-analysis of the deposited data

How the results depend on the processing

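The count of myosin heavy chain probe sets past the threshold, 0, was also 0 after quantile normalization, after median centring, at pseudocounts of 1 and 64, without the filter, with a filter at the 60th percentile, without the intensity trend and without either control array. It was 1 with the 4 arrays as separate samples and 3 with the replicate block added. Labels give both groups the numbers 1 and 2, but the control arrays share an RNA, and the differences within the groups correlated at 0.096 over probe sets, so the numbers were not taken to pair the samples. The count of sarcomere and muscle list genes past the threshold, 2, was 0 without the filter (limma; 2181 of all probe sets had an unadjusted p under 0.05) and 0 without the trend (1059). It was 6 with the 4 arrays as separate samples, 19 with the replicate block, 3 after median centring and 2 in the other tested settings. Without a transgenic array no test could be had. The log2 change of Myh7 ran from −0.04 without control replicate 2 to 0.28 without control replicate 1. Those of Myh2, Myh3 and Myh8 stayed above 0 in all 13 other settings, from 0.45 to 0.51, 0.47 to 0.57 and 0.36 to 0.62. Those of both Myh4 probe sets stayed below 0, from −0.25 to −0.02. The filter, the trend and the counting of arrays as samples do not enter the log2 change. Those settings therefore return its main value and say nothing about its direction. The number of arrays and the signals under about 30 limit what can be said of Myh6 and Myh7b.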
